A study of Mus musculus with 2 samples.

Results

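Glial cells of the adult mouse brain that held at least 2 of the genes Gfap, Thbs4, Igfbp5 and Vim together with Slc1a3 were examined in the library of cells sorted for Sox1-GFP. They were chosen by their measured molecule counts. A cell was taken when at least 1 molecule each of 2 different genes of the 4, and of Slc1a3, had been counted, and when it held fewer than 2 of the neuroblast genes Dlx1, Dlx2, Dlx5 and Dcx, fewer than 3 of 8 genes of motile cilia and fewer than 2 of 5 genes of dividing cells. Of 7988 brain cells that passed the quality limits, 160 met this rule (2.0%, exact Clopper-Pearson interval 1.71 to 2.33%), from 9952 cells in the series. They are called the chosen glia here. They were set against 5309 comparison glia, the brain cells that held Slc1a3 and passed the same exclusions but held at most 1 of the 4 genes, so that the chosen glia made up 2.93% of both groups (2.50 to 3.41%).

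The series held 1 library from brain and 1 from tail, both of Sox1-GFP+ genotype, with cells captured on the BD Rhapsody system after sorting. In this reporter line green fluorescent protein is driven from the Sox1 gene, a transcription factor of neural progenitors, and fluorescence selected the cells. The labels give neither the number of animals nor the part of the brain, and the whole tissue was minced and treated with trypsin. With 1 library per tissue no difference here has a replicate check, no p-value is given, and every interval covers counting error only, at 95%. Levels are given as CPM, the molecules of a gene over all molecules of the summed cells, scaled to a total of 1e6.

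GFAP and vimentin are intermediate filament proteins of astrocytes and of the radial glia-like stem cells that line the lateral ventricle. In that niche slowly dividing glia give rise to transit-amplifying cells and then to neuroblasts that migrate to the olfactory bulb. Thbs4 encodes a secreted thrombospondin, Igfbp5 a binding protein of insulin-like growth factors and Slc1a3 the glutamate transporter GLAST, which nearly all astroglia carry. GFAP and vimentin also rise in reactive astrocytes, and vimentin is found in the Bergmann glia of the cerebellum, so none of the genes belongs to stem cells alone.

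Most of the chosen glia met the rule with exactly 2 genes. The pair of Gfap and Igfbp5 was held by 44 cells and the pair of Igfbp5 and Vim by another 44. Gfap and Vim without the others occurred in 34 cells. Thbs4 was present in 29 cells, in 11 of them with Igfbp5 alone. All 4 genes were found in 5 cells, and 3 genes in 14. By gene, Igfbp5 was counted in 118 chosen glia, Vim in 99 and Gfap in 98. These numbers follow from the choice and are given as a description.

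**Figure D1:**
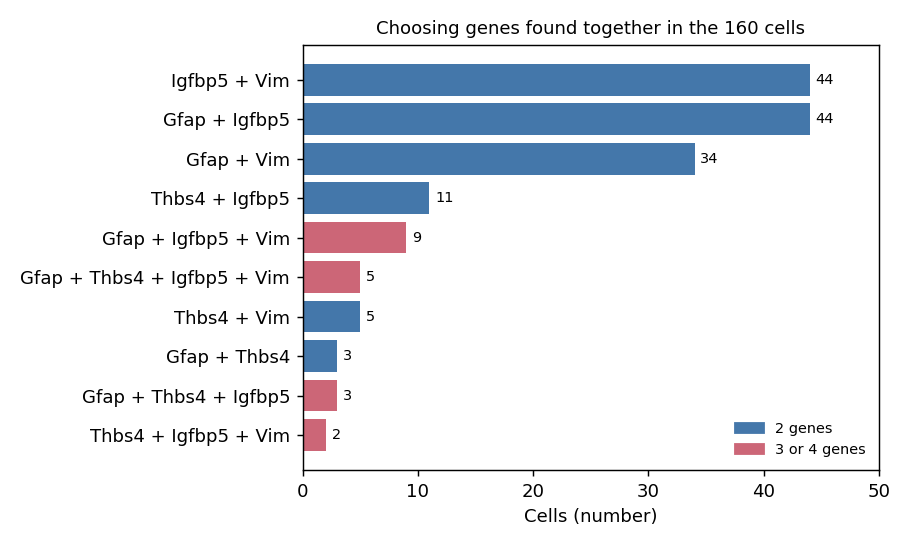
Number of chosen glia (x axis, cells) with each combination of the choosing genes (y axis), blue for 2 genes and red for 3 or 4. The pairs Igfbp5 with Vim and Gfap with Igfbp5 held 44 cells each, and 5 cells held all 4 genes.

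The choosing genes were sparse even where they were present. The median count among cells that held the gene was 1 molecule for Gfap, Thbs4 and Vim and 1.5 for Igfbp5, with maxima of 24, 3, 17 and 13 molecules in a cell. Summed over the chosen glia, Gfap reached 1537 CPM, Thbs4 253 CPM, Igfbp5 1663 CPM and Vim 1187 CPM. In the comparison glia they stood at 54.6, 2.12, 176 and 135 CPM. Just outside the rule lay the comparison glia with a single gene of the 4, of which 529 held Igfbp5, 259 Vim, 178 Gfap and 9 Thbs4. The median total was 694 molecules in cells with none of the genes, 880 with 1, 904 with 2, 825.5 with 3 and 525 with 4. The chosen glia had a median of 852 molecules and 546 genes, against 714 molecules and 431 genes in the comparison glia. The Thbs4 cells were the exception, with a median of 558 molecules.

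The exclusions removed 44 of 204 cells that met the marker part of the rule, 20 by the neuroblast genes, 13 by the cilia genes and 16 by the cycling genes, with some cells removed by more than 1. Among the cells kept, 5 held exactly 1 of the neuroblast genes, 2 exactly 1 cilia gene and 6 exactly 1 cycling gene.

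Whether the 4 genes occur together at all was asked by leaving each out of the choice in turn. Cells with Slc1a3 that passed the exclusions were chosen by 2 or more of the other 3 genes, and the gene left out was then read in them. Gfap was present in 17 of 79 cells chosen without it (21.5%, 13.1 to 32.2%) and in 259 of 5390 others (4.81%). Its summed level was 619 CPM against 101 CPM, a ratio of 6.13 (4.47 to 8.25). Thbs4 was present in 10 of 141 cells (7.09%) and 28 of 5328 others (0.526%), with a ratio of 14.0 (7.31 to 25.7). For Igfbp5 the counts were 19 of 61 cells (31.1%) against 628 of 5408 (11.6%), and the ratio was 4.49 (3.43 to 5.80). Vim was present in 16 of 77 cells (20.8%) against 342 of 5392 (6.34%), but its summed level differed least, with a ratio of 1.74 (1.06 to 2.71). Each gene was thus found more often in cells chosen by the others. The cells chosen by the other genes were somewhat deeper, with medians of 816 to 904 molecules against 714 to 716.5. Depth alone was then evened out by weighting, which left the Gfap, Thbs4, Igfbp5 and Vim ratios at 5.37, 21.7, 4.38 and 1.54. The Vim interval then ran from 0.934 to 2.41 and reached 1.

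**Figure D2:**
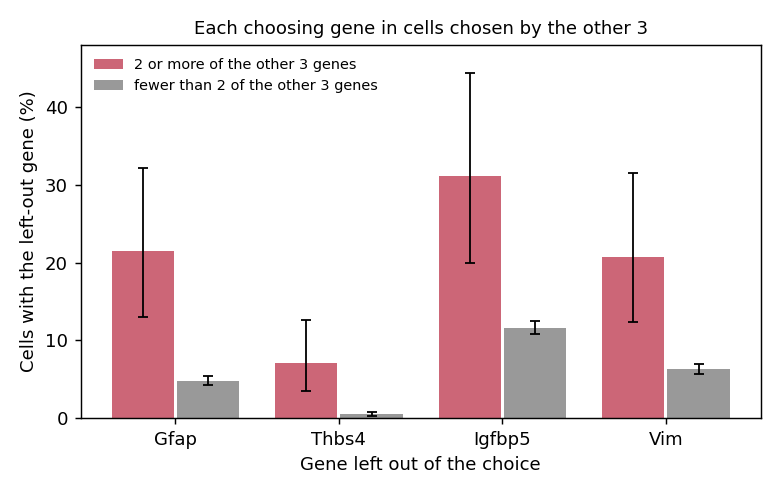
Share of cells that held each choosing gene (y axis, %) when the cells were chosen by 2 or more of the other 3 genes (red) or held fewer (grey); lines show exact binomial intervals. Each red bar stands above its grey bar, from 7.09% against 0.526% for Thbs4 to 31.1% against 11.6% for Igfbp5.

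The genes were also read in cells that should lack them, as a level of free RNA. Most of these cells were taken for holding no Slc1a3, which may set that level low for cells that hold it. Gfap was counted in 1 of 1212 brain cells that held 2 or more of Dlx1, Dlx2, Dlx5 and Dcx but no Slc1a3 (0.0825%, median of 704 molecules), and in 0 of 42 cells with 3 or more microglia genes, which allows a share of up to 7.14%. Thbs4 was found in 0 of the 1212 cells, which allows a share of up to 0.248%. Igfbp5 and Vim were not confined to glia, since 305 and 255 of those 1212 cells held them.

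The 250 bases before the RefSeq start site of each choosing gene are shown (build GRCm38.p6, 5′ to 3′ on the gene's strand). The choice rests on these genes together with Slc1a3 and the exclusions. Capitals mark matches, on either strand, to the letters TTGGCA of a nuclear factor I half-site, which glial genes such as Gfap are known to use, TGGGAA of the Notch effector RBPJ or TTCNNNGAA of STAT factors. Gfap lies on the minus strand and the window is chr11:102897201-102897450. The windows of Thbs4 and Igfbp5 are chr13:92794819-92795068 and chr1:72874866-72875115, both on the minus strand, and that of Vim is chr2:13574061-13574310 on the plus strand.
Gfap: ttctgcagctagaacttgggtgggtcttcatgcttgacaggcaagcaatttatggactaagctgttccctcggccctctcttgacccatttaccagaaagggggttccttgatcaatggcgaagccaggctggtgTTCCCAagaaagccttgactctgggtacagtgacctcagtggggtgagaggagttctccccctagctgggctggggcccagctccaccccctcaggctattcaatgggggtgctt
Thbs4: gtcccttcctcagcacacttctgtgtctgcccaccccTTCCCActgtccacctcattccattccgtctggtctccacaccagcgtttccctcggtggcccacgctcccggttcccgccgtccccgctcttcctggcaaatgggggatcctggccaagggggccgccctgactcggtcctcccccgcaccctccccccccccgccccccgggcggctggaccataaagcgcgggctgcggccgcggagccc
Igfbp5: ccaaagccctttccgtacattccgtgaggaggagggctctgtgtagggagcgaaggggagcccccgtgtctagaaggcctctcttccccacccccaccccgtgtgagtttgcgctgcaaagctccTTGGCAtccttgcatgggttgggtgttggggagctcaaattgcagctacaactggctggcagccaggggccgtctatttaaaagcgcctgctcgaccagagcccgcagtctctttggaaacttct
Vim: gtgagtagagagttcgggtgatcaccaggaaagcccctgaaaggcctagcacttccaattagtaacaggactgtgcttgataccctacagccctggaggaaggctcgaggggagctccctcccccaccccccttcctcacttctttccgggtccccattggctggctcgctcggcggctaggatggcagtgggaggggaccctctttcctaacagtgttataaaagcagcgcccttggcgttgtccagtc

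Gfap and Thbs4 each held the RBPJ letters once, on the opposite strand, starting 115 and 213 bases before the start site. Igfbp5 held the nuclear factor I letters once, 125 bases before it, and the Vim window held none of the 3 motifs. Over all 32851 RefSeq promoter windows of this length, 12.3% held the nuclear factor I letters, 21.6% the RBPJ letters and 7.02% the STAT letters. Of the 106 genes called higher in the chosen glia in the comparison of expression, 81 matched a RefSeq entry with 95 windows, of which 8.42%, 20% and 6.32% held the same letters. The matches are letters in a window and are not known to be bound.

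The comparison with the other glia covered 8139 genes with at least 50 molecules over both groups, the genes of the rule and the mitochondrial genes left out. A gene was called when the exact interval of its CPM ratio lay wholly beyond 2-fold. By this rule 106 genes were higher in the chosen glia (1.3% of those tested) and 22 lower (0.27%). The median log2 ratio of all tested genes was 0.19, and the balance of the calls depended on the scaling: 82.8% of calls were higher with totals, 57.1% when the median ratio was set to 0 and 29.4% with TMM factors, which lowered each log2 ratio by 0.40. When the comparison glia were weighted to the depth of the chosen glia, 31 genes were called higher, 29 of them among the 106. Without the single chosen cell that held most molecules of a gene, 58 of the 106 were still called.

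Genes called higher are named here by the nearer bound of the interval. Tmem132b, a membrane protein gene, had 24 molecules in 19 chosen glia and 48 in 41 comparison glia, a ratio of 12.8 (7.51 to 21.3). Sfrp1, a secreted modulator of Wnt signalling, was found in 31 chosen and 159 comparison glia with a ratio of 7.86 (5.75 to 10.6). Both genes were still called with TMM factors and after weighting by depth, and Sfrp1 was lost only where Gfap had to be among the choosing genes. 6330403K07Rik had a ratio of 7.66, but 1 chosen cell held 31 of its 87 molecules, and the ratio was 4.97 without that cell.

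Slc38a1, a glutamine transporter gene, was present in 60 of the 160 and in 350 comparison glia, with a ratio of 4.65 (3.86 to 5.58). The 484 comparison glia with Gdf10 held Slc38a1 at 1104 CPM, in 218 cells, above the 844 CPM of the chosen glia. Dbi, which encodes the acyl-CoA binding protein that also acts on GABA receptors, was present in 130 chosen glia at 3188 CPM against 1365 CPM. It had a ratio of 2.34 (2.13 to 2.55) and was not called with TMM factors or after weighting by depth. Dkk3, a secreted glycoprotein gene of the Dickkopf family, had 79 molecules in 47 chosen glia and 544 in 423 comparison glia, a ratio of 3.72. Celsr1, a cadherin of planar cell polarity, and Fbln2, a matrix protein gene, each had 13 molecules against 44 and a ratio of 7.57. Sept3 and Plagl1, a septin and an imprinted zinc-finger gene, had ratios of 5.23 and 6.05, and the immediate early genes Klf4, Fosb, Junb and Btg2 ratios of 9.44, 6.44, 7.69 and 6.47. These 8 genes were each present in 8 to 20 chosen glia, and Klf4, Fbln2, Sept3 and Plagl1 were not called without cells of 3 or more immediate early genes.

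The genes called lower included those of grey-matter astrocytes. The GABA transporter gene Slc6a11 stood at 904 CPM in the chosen glia and 3075 CPM in the comparison glia, a ratio of 0.294 (0.249 to 0.345). It was present in 62 of 160 cells against 3986 of 5309. In the comparison glia with Gdf10 it stood at 1110 CPM, and in those with both Chst2 and Hapln1 at 1003 CPM. A low level of Slc6a11 was thus not particular to the chosen glia. Gjb6, which encodes connexin 30, had 663 CPM against 1961 CPM, a ratio of 0.338. The amino acid transporter gene Slc7a10 had 410 CPM against 1195 CPM, a ratio of 0.343. The comparison glia with Gdf10 lay between, with Gjb6 at 1021 CPM and Slc7a10 at 723 CPM. The lipid transporter gene Mfsd2a had a ratio of 0.208 (0.116 to 0.344), Etnppl 0.201, Igfbp2 0.181 and B3galt2 0.272. Slc7a10, Etnppl and B3galt2 were not called after weighting by depth. Cldn11 and Atp9b had 0 molecules in the chosen glia, with exact intervals of the ratio that reached up to 0.370 and 0.409. Taken against a floor of 3 molecules over the group, they were 3.34-fold and 3.03-fold lower. The 257 Cldn11 molecules of the comparison glia came from only 8 cells.

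**Figure D3:**
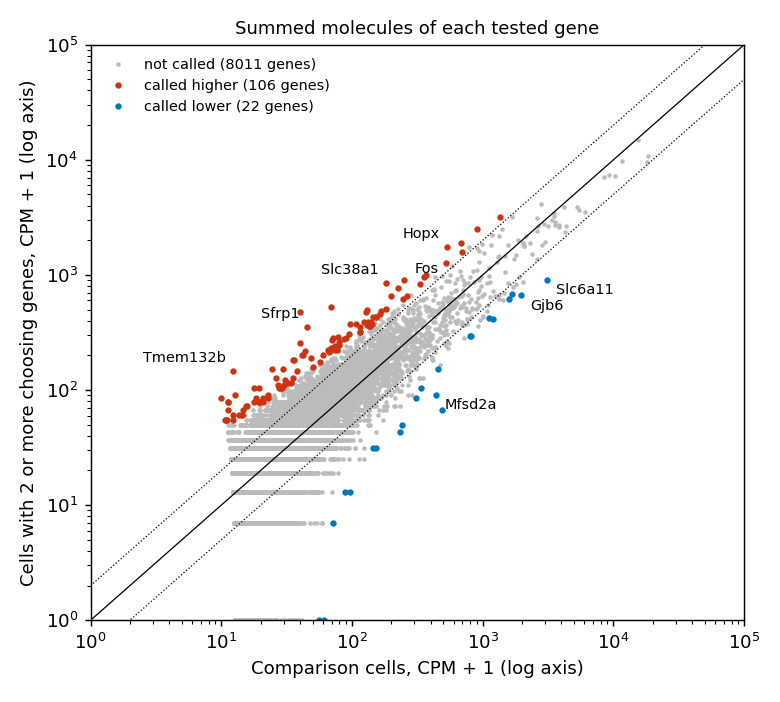
Level of each of the 8139 tested genes in the comparison glia (x axis) and in the chosen glia (y axis), both as CPM + 1 on log axes; dotted lines mark 2-fold. Red marks the 106 genes called higher, such as Tmem132b and Sfrp1, and blue the 22 called lower, such as Slc6a11, Gjb6 and Mfsd2a.

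The label of ventricular stem-like glia was checked against gene lists, which are described by counts and medians beside the median of 0.19 over all tested genes. Of 21 genes of ventricular stem cells 17 were tested, and 1 was called higher, the homeodomain gene Hopx, with a ratio of 3.26 (2.87 to 3.69). Hopx was not called after weighting by depth or without cells holding Gdf10 or Gria4. The list's median log2 ratio was 0.22 and turned to −0.18 with TMM factors. Stem cell genes that were not called included Fabp7, a fatty acid binding protein gene, with a ratio of 2.19 (1.93 to 2.47), Nr2e1 with 1.71 (0.980 to 2.79), Sox2 with 1.25, Sox9 with 1.16 and Vcam1 with 0.552. Prom1 was found in 1 chosen cell. Nes, the nestin gene, had 3 molecules in the chosen and 7 in the comparison glia, a ratio of 10.98 (1.83 to 48.1). Veph1, named here after its values were seen, had 6 molecules in 6 of the 160 chosen glia and 2 molecules in 5309 comparison glia, a ratio of 76.9 (13.7 to 779), under the minimum of 50 molecules for a call.

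Genes of activated stem cells stood higher than the ventricular list, but unevenly. Their sum was 5556 CPM in the chosen and 2330 CPM in the comparison glia. It was 7743 CPM in the pair of Igfbp5 and Vim and 2907 CPM in the pair of Gfap and Igfbp5. The comparison glia with Gdf10 held 4070 CPM. The brain cells with 2 or more of the neuroblast genes and no Slc1a3 held 17778 CPM. Of 17 genes 13 were tested and 4 were called higher, with a median log2 ratio of 1.22. Besides Dbi these included the cyclin gene Ccnd2, with a ratio of 3.89 (2.93 to 5.10), and the cyclin-dependent kinase gene Cdk6, with 9 molecules in 6 chosen glia. Neither was called after weighting by depth, and Cdk6 was also lost with TMM factors and without its top cell. The receptor gene Egfr, a marker of activated and transit-amplifying cells, did not differ beyond counting error, with a ratio of 0.856 (0.503 to 1.36). Mki67 was found in 4 of 160 chosen and 4 of 5309 comparison glia, at a single molecule each. That is a ratio of 25.6 (4.77 to 138), from counts too small for a call. The rule had capped the cycling genes in both groups.

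Genes of fibrous or reactive astrocytes also stood higher. Of 18 genes 10 were tested and 4 were called higher, with a median log2 ratio of 0.69. These were the complement gene C4b, with a ratio of 5.12 (3.34 to 7.62), the calcium-binding protein gene S100a6, with 5.10 (3.46 to 7.32), the matrix gene Tnc, which is also made by ventricular glia, with 4.86 (3.24 to 7.08), and the hyaluronan receptor gene Cd44, with 10 molecules in 6 cells. Cd44 was not called with TMM factors, with the median ratio, without its top cell or without cells holding Gdf10 or Gria4, and Tnc not after weighting by depth or without the latter cells. In the 484 comparison glia with Gdf10, Tnc, S100a6 and C4b stood at 252, 123 and 30.4 CPM. The chosen glia held 199, 217 and 181 CPM. Serpina3n, an acute-phase gene of reactive astrocytes, had a ratio of 2.16 (1.36 to 3.28) and was not called, and the metallothionein genes Mt1 and Mt2 had ratios of 1.0 and 1.21.

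All 18 genes of parenchymal astrocytes were tested, 17 had a ratio under 1 and 5 were called lower, with a median log2 ratio of −1.18. The called genes were Slc6a11, Gjb6, Slc7a10, the protease gene Htra1 with a ratio of 0.387 and Itih3 with 0.378. Neither Htra1 nor Itih3 was called without cells of 3 or more immediate early genes. Itih3 was also lost after weighting by depth and against all other Slc1a3 cells, and Htra1 with at least 2 molecules of Slc1a3. The 16 genes shared by astroglia had a median of −0.33 and no calls, and Aqp4, the aquaporin of astrocyte endfeet, had a ratio of 1.01 (0.908 to 1.12). The chosen glia thus carried the shared astroglial genes at levels within 2-fold of the comparison glia, with less of the parenchymal genes. Summed, the parenchymal list held 20826 CPM in the chosen and 34847 CPM in the comparison glia. It held 27044 CPM in the comparison glia with Gdf10 and 37702 CPM in those with both Chst2 and Hapln1.

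Lists of other cell types and positions gave few calls. The Bergmann glia list had 7 genes tested and 2 called higher, Gdf10 with a ratio of 2.72 and Gria4 with 2.67, and a median of 0.73. Neither gene was called with TMM factors or after weighting by depth, and Gria4 was also lost with the median ratio and without its top cell. The tanycyte list had 4 of 10 genes tested, none called, and a median of 1.56. Rax, the defining factor gene of tanycytes, had 0 molecules in the chosen and 1 in the comparison glia, too few to compare. The ependymal list had 4 genes tested, no calls and a median of 0.25, which became −0.15 with TMM factors. The rule itself limited 8 cilia genes. Outside those, Foxj1 had a ratio of 3.88 (1.18 to 10.0) and Enkur 21.4 (5.15 to 84.0), with 5 molecules each in the chosen glia, under the minimum. Other genes of the list went the other way, with ratios of 0.774 for Rarres2 and 0.788 for S100b. Rsph1 had 0 molecules in the chosen and 7 in the comparison glia. Only 2 of the 4 tested genes had a ratio above 1. In the forebrain list 1 of 7 tested genes was called higher, Six3, with a ratio of 3.45 (2.02 to 5.59), and the median was 0.44. Six3 was not called with either other scaling, without its top cell or without cells of 3 or more immediate early genes. The midbrain and hindbrain list had 5 tested genes, no calls and a median of −0.23. The list of ventricular wall position had 7 tested genes, no calls and a median of 0.77. Summed, it held 482 CPM in the chosen and 306 CPM in the comparison glia. The comparison glia with Gdf10 held 835 CPM, with Zic1 at 319 CPM against 102 CPM in the chosen glia. A raised level of this list was thus not particular to the chosen glia.

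Among lists of possible admixture, the oligodendrocyte list had 7 tested genes, 2 called lower, Cldn11 among them, and a median of −2.41, which turned to 0.0901 with the mean of each cell's own CPM. At least 1 gene of the list was present in 23.8% of the chosen and 17.4% of the comparison glia, and the comparison molecules of Mag (136) and Mal (150) came from 7 and 15 cells. The neuroblast list had 3 tested genes and a median of 1.09, the mural and fibroblast list 3 and 0.41, microglia 2 and −0.03, oligodendrocyte precursors 1 and 0.44, neurons 1 and 0.06, and choroid plexus 1 and −0.04, all without calls, and no endothelial or cycling gene reached the minimum. Summed levels in the chosen and comparison glia were 235 and 113 CPM for the neuroblast list, 96.4 and 170 CPM for microglia and 48.2 and 37.9 CPM for neurons. The microglial C1qa, C1qb, C1qc, Csf1r and Cx3cr1 were at 0 in the chosen glia. The doublet caller marked 76 of the 7988 brain cells (0.951%) and 2 of the 160 chosen glia. The part of such cells in the results was not tested beyond leaving the marked doublets out.

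Of the pathways, Notch had 12 genes tested, no calls and a median of −0.44. Its receptor genes Notch1 and Notch2 had ratios of 0.970 and 0.712, the targets Hes1 and Hes5 0.720 and 0.712. The effector gene Rbpj was not called, with a ratio between 1.35 and 4.90. The ligand gene Dll1 had 7 molecules in 5 chosen glia and 17 in 13 comparison glia, a ratio of 10.6 (3.70 to 26.8), under the minimum. The BMP list had 10 genes tested, 1 called higher and a median of −0.34. The called gene was Id4, an inhibitor of basic helix-loop-helix factors, with 84 chosen glia and a ratio of 2.43 (2.10 to 2.80). It was not called with TMM factors, with the median ratio, after weighting by depth, under 20% mitochondrial molecules or without its top cell. In the 484 comparison glia with Gdf10, Id4 stood at 1736 CPM, above the 1259 CPM of the chosen glia. Id2 and Id3 of the same family had ratios of 0.772 and 1.81. Among 6 tested relatives of the choosing genes only Igfbp2 was called, lower, and the list's median was −0.80. The filament genes Nes and Synm were under the minimum and were not tested.

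**Figure D4:**
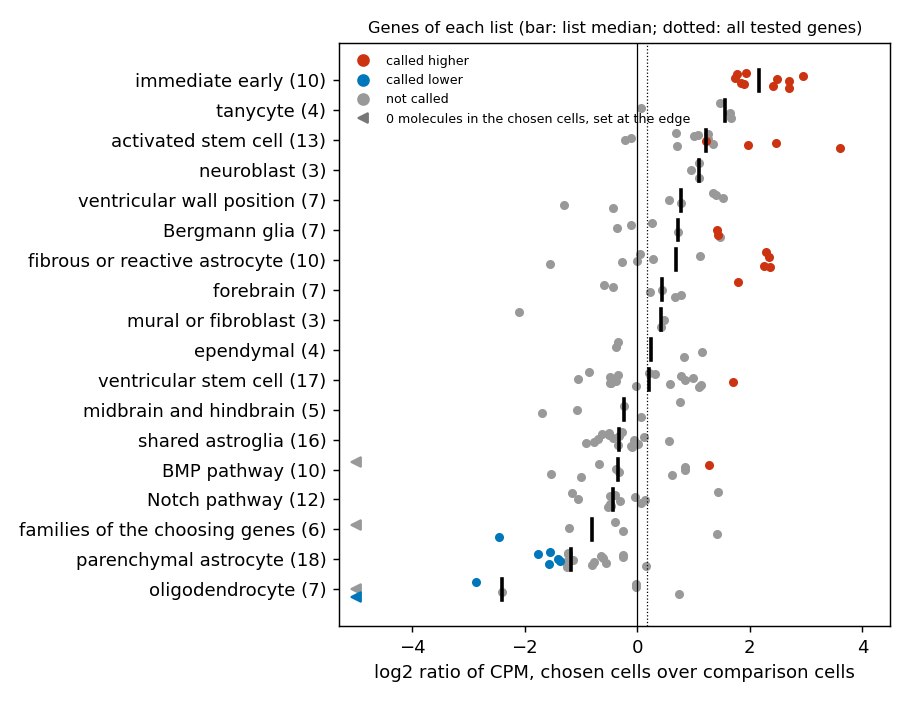
log2 ratio of CPM in the chosen over the comparison glia (x axis) for the tested genes of each list (y axis, number tested in brackets); the bar is the list's median, red and blue are calls and triangles are genes with 0 molecules in the chosen glia. All 10 immediate early genes stand to the right, and 17 of 18 parenchymal astrocyte genes to the left of 0.

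Immediate early genes, which are switched on within minutes by stimulation and also by tissue dissociation, were called higher in 10 of 10 tested genes, with a median log2 ratio of 2.17. Jun, Egr1, Ier2 and Zfp36 were not called after weighting by depth, Zfp36 not with TMM factors, and Ier2 and Zfp36 not without the top cell. Fos had 149 molecules in 28 chosen glia, 898 CPM against 249 CPM, a ratio of 3.60 (3.01 to 4.28). The whole list summed to 3465 CPM in the chosen and 899 CPM in the comparison glia. In the brain cells with 2 or more of the neuroblast genes and no Slc1a3 it summed to 21275 CPM. The cells with 3 or more microglia genes held 31264 CPM, so high levels were not particular to the chosen glia. At least 3 of the genes were present in 23 chosen glia (14.4%) and 153 comparison glia (2.88%), and 78 chosen glia held none. These cells were concentrated in the pair of Igfbp5 and Vim, with 13 of 44. Without cells holding 3 or more of them, on both sides and with the list not tested, 54 genes were called higher, 41 of them among the 106. Sfrp1, Tmem132b, Slc38a1, C4b and S100a6 were among those still called.

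Ribosomal protein genes moved with the chosen glia as well. Of 79 tested, 78 had a ratio above 1 and 23 were called higher, and their sum was 19283 CPM against 7748 CPM. The mitochondrial genes summed to 121376 CPM in the chosen and 165087 CPM in the comparison glia. The part of the ribosomal genes and the trypsin step in the other calls was not tested, and the immediate early genes and the cell state they mark cannot be told apart from the sort and dissociation in 1 library.

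The chosen glia differed among themselves by which genes they held. Each split compared chosen glia with and without a choosing gene over 406 genes with at least 50 molecules. Since the rule asked for 2 of 4 genes, cells without 1 gene held more of the others, and the splits are not independent of each other.

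In chosen glia with Vim 10 genes were higher than in those without (2.46% of 406). Gdf10, a growth factor gene of Bergmann glia, had 163 molecules in 32 of the 99 cells with Vim and 2 molecules in 61 cells without, a ratio of 38.8 (10.6 to 323). Gria4, an AMPA receptor subunit gene, had 60 molecules in 18 cells with Vim and 0 without, with a lower interval bound of 7.51 for the ratio. Sept4 and Hopx had ratios of 21.3 (7.12 to 104) and 11 (6.21 to 21.6). All 18 Gria4 cells held Hopx, and 16 of them held Gdf10. The pattern was strongest in the cells with Gfap and Vim alone, where Gdf10 reached 2325 CPM, Hopx 4240 CPM and Gria4 912 CPM. In the comparison glia these genes had 366, 536 and 135 CPM. Of the 259 comparison glia with Vim, 183 also held Gdf10, so the link of Vim with Gdf10 was present outside the chosen glia as well. In the 484 comparison glia with Gdf10, Vim stood at 888 CPM and Gfap at 47.4 CPM. Hopx and Gria4 stood at 2869 and 985 CPM in them, above the 1748 and 362 CPM of all chosen glia.

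Cells with Thbs4 formed a second pattern, with 3 genes higher (0.739%) and 12 lower (2.96%) than in the other chosen glia. Dkk3 had 32 molecules in 15 of 29 cells with Thbs4, 1647 CPM against 321 CPM, a ratio of 5.13 (3.17 to 8.22). Sfrp1 was present in 12 of the 29, with a ratio of 4.61 (2.58 to 8.05), and the proteoglycan gene Cspg5 in 24, with 2.96 (2.21 to 3.95). Lower were Nnat, with a ratio of 0.130, the glycine transporter gene Slc6a9 with 0.106, Aqp4 with 0.127 (0.0465 to 0.280) and Hopx with 0.187. Agt, the angiotensinogen gene of many astrocytes, had 0 molecules in the Thbs4 cells. Taken against a floor of 3 molecules, it was 6.18-fold lower there than in the comparison glia. These cells were the shallowest of the chosen glia. In the 283 comparison glia with both Chst2 and Hapln1, Cspg5, Dkk3 and Sfrp1 stood at 3318, 353 and 83.8 CPM. The Thbs4 cells held 3500, 1647 and 1132 CPM, so Cspg5 at this level was not particular to them.

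Splits by the other genes gave related results. With Gfap, Aqp4 was the only gene higher (0.246%), with a ratio of 3.47 (2.61 to 4.69), and 10 genes were lower (2.46%), among them 6330403K07Rik with 0.135, Ccnd2 with 0.140, Sfrp1 with 0.188 and the ribosomal gene Rpl39 with 0.186. With Igfbp5, Fos was the only gene higher (0.246%), with 141 of 149 molecules and a ratio of 7.30 (3.61 to 17.2), and 8 were lower (1.97%), led by Sept4 with 0.171, Hopx with 0.225, Gdf10 with 0.237 and Gria4 with 0.207.

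The 2 patterns met in few cells for Sfrp1 and in more for Dkk3. Of the 34 Gdf10 cells 2 held Sfrp1, 10 held Dkk3 and 0 held Fos, and of the 18 Gria4 cells 1 held Sfrp1 and 3 held Dkk3. Of the 31 Sfrp1 cells 19 held Dkk3 and 4 held Hopx. Dkk3 was also held by 19 of the 51 Hopx cells. Cells with Gfap and Igfbp5 alone were nearest to the comparison glia in the parenchymal genes, with Slc6a11 at 1759 CPM and Gjb6 at 1270 CPM, against 684 and 615 CPM in cells with Gfap and Vim. They held Aqp4 at 3200 CPM.

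**Figure D5:**
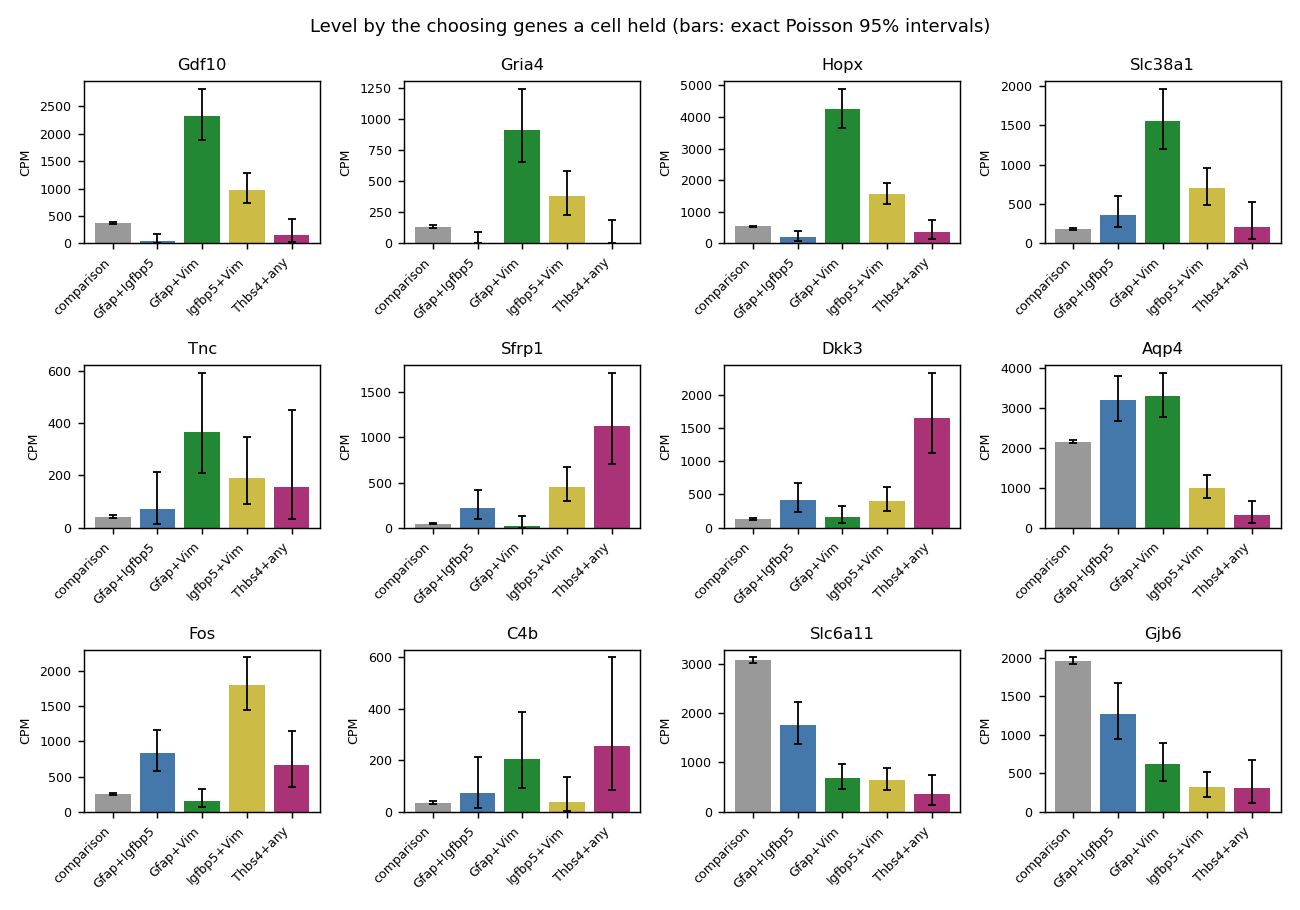
CPM (y axis, from 0, own scale per gene) of 12 genes in the comparison glia (grey) and in chosen glia grouped by the choosing genes they held; lines are exact Poisson intervals. Gdf10, Gria4 and Hopx were highest in cells with Gfap and Vim, Sfrp1 and Dkk3 in cells with Thbs4, and Slc6a11 and Gjb6 in the comparison glia.

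The chosen glia lay only partly together among the comparison glia. With the genes of the rule left out of 2000 variable genes, 15.5% of the 30 nearest neighbours of a chosen cell were chosen glia on average, against a share of 2.93% among all cells placed, and 34 of the 160 had none. After thinning each cell to 500 molecules, which left out 25 chosen and 985 comparison glia, the mean was 11.3% beside a share of 3.03%. By pair the mean was 8.26% for Gfap with Igfbp5, 14.4% for Gfap with Vim and 19.5% for Igfbp5 with Vim, and 19.5% for the Thbs4 cells. The data therefore do not bear out the label as 1 cell type. The chosen glia are described by the rule and by genes that only a part of them held. Sfrp1 was present in 31 of the 160, and Gdf10 or Gria4, often with Hopx, in 36, mostly other cells. Dkk3 was found among both. Most of the chosen glia held none of Sfrp1, Gdf10 and Gria4. Gdf10 and Gria4 were not called with TMM factors or after weighting by depth. Hopx and Gria4 stood higher in the comparison glia with Gdf10, and Dkk3 reached 353 CPM in those with Chst2 and Hapln1.

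The gene by which the cells had been sorted was read in few of them. Sox1 had 22 molecules in 16 chosen glia (10.0%) and 363 molecules in 337 comparison glia, 133 CPM against 85.4 CPM, a ratio of 1.55 (0.961 to 2.39), which does not set the groups apart at this depth.

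The same rule was applied to the tail library as a check on its reach outside the brain. It took 579 of 1964 tail cells (29.5%), but nearly all through Igfbp5 and Vim, which were present in 100% and 99.8% of them. Gfap was found in 7 of the 579 (1.21%) and Thbs4 in 3 (0.518%), and the astroglial gene Gpr37l1 in 1, against 113 of the 160 brain cells (70.6%). Slc1a3 stood at 1734 CPM in the tail cells and 12161 CPM in the chosen glia. By the study the tail was postnatal and the brain adult, so tissue, age and library cannot be told apart in this comparison. The files shared 29 cell barcodes, 1 of them of a chosen cell.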

How the data were processed

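The authors' deposited tables held molecule counts per cell and gene, from the BD Rhapsody pipeline (header version 1.10.1, GRCm38, GENCODE vM19); the submitters' processing notes also list UMI-tools 1.0.1, STAR 2.7.1a and featureCounts 1.6.4. The error-corrected counts were used as deposited, with barcodes as given. The quality limits followed the study's methods (genes per cell above 200 and below 4000, mitochondrial share below 40%) and left 7988 brain and 1964 tail cells. The brain cells held 6424466 molecules in all and the tail cells 2817103, and the chosen glia 165947.

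Counts were summed over cells, and ratios of CPM carry exact conditional binomial intervals, shares exact Clopper-Pearson intervals and levels exact Poisson intervals. A gene was called when it had at least 50 molecules over both groups and the interval lay beyond 2-fold. This procedure was tested on simulated sums that held no single cells. The simulation therefore cannot show how calls behave where a few cells hold most molecules of a gene. Scrublet, with an expected rate of 0.05, marked doublets, which were kept. Neighbours came from 20 principal components (scanpy 1.11.5), TMM factors from edgeR 4.0.16, used for scaling only, and promoter windows from RefSeq, matched by symbol. The members and the 24 gene lists were chosen with earlier results of these data known. Genes were named by rule: those of the rule, the first 15 called higher and 10 called lower by the nearer interval bound, the first 4 in each direction of each split, Sox1, and the called genes and defining markers of each list; 2 genes that this rule names are not reported here. Alternatives changed the counts (before error correction), filters, rule, comparison glia, scaling and minimum. No sample was paired or replicated.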

Additional observations from a re-analysis of the deposited data

How the results depend on the processing

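No paired analysis was possible because each tissue had 1 library. Of 604 recomputed ratios of 44 named genes, 483 stayed within the interval reported, 113 moved outside it in the same direction and 8 changed direction, 7 of them at 0 molecules; the cause was not tested except where the construction shows it. The number of chosen glia was 19 with at least 3 of the 4 genes and 60 when the rule was applied to thinned cells. The Igfbp5 ratio in cells chosen by the other genes was 3.39 under 20% mitochondrial molecules.

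Against 106 genes called higher and 22 lower, asking for at least 3 of the 4 genes gave 42 higher and 8 lower, and asking for Gfap among them 36 and 9. Setting the cells against all other Slc1a3 cells gave 50 and 13, TMM factors 32 and 77, and the median ratio 56 and 42. The mean of each cell's own CPM, without an interval, gave 1220 and 1113. Without cells of 3 or more immediate early genes the counts were 54 and 14, and without the member with most molecules of each gene 58 and 40, where removal lowers each ratio by construction. The calls higher alone moved to 68 under 20% mitochondrial molecules, 31 with weights on depth, 63 with a minimum of 200 molecules and 226 with none, and the calls lower to 12 with at least 2 molecules of Slc1a3.

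With at least 3 of the 4 genes (19 cells) the ratios of Klf4, Junb, Cdk6, Gria4, Ier2, Dusp1 and Zfp36 were 0, from 0 molecules in too few cells to read a direction from, and the median log2 ratios of the activated stem cell and Bergmann glia lists −0.92 and −1.23. With Gfap among the genes the Ier2 ratio was 0.542. The ventricular stem cell list stood at −0.18 with TMM factors and the oligodendrocyte list at 0.0901 with each cell's own CPM. Without cells holding Gdf10 or Gria4, genes of the list itself, the Bergmann list stood at −0.73, and 138 genes were called higher, 86 of them among the 106. The settings without Gdf10 or Gria4 cells, without immediate early cells and without the top member were chosen after seeing the data. A median of 852 molecules in a cell limits all shares of cells.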

Other observations

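The ratios of 2 genes below the minimum of 50 molecules, picked out after their values were seen, lay above 1 with their intervals. Gpr50, an orphan receptor gene of tanycytes, had 5 molecules in 4 of the 160 chosen glia and 2 molecules in 2 of the 5309 comparison glia, a ratio of 64.1 (10.5 to 673), or 38.7 without the chosen cell that held 2 of the 5. S1pr3, a sphingosine phosphate receptor gene of reactive astrocytes, had 6 molecules in 4 chosen glia and 9 in 9 comparison glia, a ratio of 17.1 (5.0 to 53.7). Of its 6 molecules 3 came from 1 chosen cell, and the ratio was 8.64 without it. Both counts are small.

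The brain cells without Slc1a3 that held 2 or more of Dlx1, Dlx2, Dlx5 and Dcx carried 6330403K07Rik in 514 of 1212 cells at 704 CPM and Ccnd2 in 909 cells at 4258 CPM, against 524 CPM and 374 CPM in the chosen glia.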
